A study of Mus musculus with 4 samples.

Results

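The PDZ-LIM family are the muscle scaffold genes Ldb3, Pdlim3, Pdlim5 and Pdlim7 and their relatives Pdlim1, Pdlim2 and Pdlim4, taken by gene symbol. These 7 genes were found among 40137 gene units, a unit being a gene or several overlapping genes counted as one, and they held 148 of 374286 exonic bins. A bin is a piece of exon between neighbouring annotated boundaries. The RNA came from the thigh skeletal muscle of male wild-type C57BL/6J mice, an inbred strain, at 28 months of age (3 libraries) and at 18 months (1 library). No allele or treatment separated the groups. The sequencing was meant to check a splicing analysis done on exon arrays, which was not analysed here. The extraction text of the labels describes epidermal cells of skin, while the tissue labels give muscle.

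PDZ-LIM proteins hold an N-terminal PDZ domain, which binds alpha-actinin and other proteins of the Z-disc, the structure that anchors thin filaments at the ends of each sarcomere. LIM domains at the C-terminus bind kinases and other partners. Pdlim5, Pdlim7 and Ldb3 are transcribed into long forms that carry several LIM domains and into short forms that end on an exon of their own and lack them. Exon choice in these genes is known to differ between heart and skeletal muscle, so that the same gene gives proteins with different binding regions between the PDZ and LIM domains.

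The bins called in the test of exon use were very short exons, and their sequences are given here for that reason, with those of other short exons of the family for comparison. They come from GENCODE release M21 transcripts on GRCm38, 5′ to 3′ on the transcribed minus strand. Capitals mark the exon, and lower case marks the 12 bases that precede and follow it in an annotated transcript. Pdlim5 bin 14 (chr3:142309528-142309544), bin 13 (chr3:142306284-142306298) and bin 12 (chr3:142304705-142304722) are successive coding exons of 17, 15 and 18 bases. Their lower-case bases come from a transcript that joins bins 14, 13 and 12, although bin 13 was hardly counted in any library. The junctions used in these libraries were not examined. Ldb3 bin 11 (chr14:34569713-34569727) has 15 bases and Pdlim7 bin 21 (chr13:55507864-55507880) has 17. Ldb3 bin 13 (chr14:34572990-34573012), of 23 bases, is shown as a short exon that was counted freely at both ages.
Pdlim5 bin 14: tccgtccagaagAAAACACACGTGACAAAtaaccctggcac
Pdlim5 bin 13: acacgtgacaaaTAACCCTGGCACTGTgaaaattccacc
Pdlim5 bin 12: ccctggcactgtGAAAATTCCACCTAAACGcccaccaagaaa
Ldb3 bin 11: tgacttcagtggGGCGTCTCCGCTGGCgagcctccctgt
Ldb3 bin 13: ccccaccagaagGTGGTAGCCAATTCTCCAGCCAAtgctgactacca
Pdlim7 bin 21: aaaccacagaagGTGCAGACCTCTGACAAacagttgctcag

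Library totals were 67279205 to 76163175 counts at 28 months, against 65780464 at 18 months. Levels are given as CPM, counts scaled to a common library size after TMM scaling. Replicate 2 of 28 months stood apart, with a TMM factor of 1.28 against 0.877 and 0.897 in the other replicates and 0.990 at 18 months. Markers of fast fibres summed to 205600, 102400 and 209100 CPM in replicates 1, 2 and 3 of 28 months, against 122200 CPM at 18 months, and those of fibroblasts to 2412, 6729 and 3134 CPM at 28 months, against 3142 CPM at 18 months. All 8 macrophage markers were higher in every 28-month library than at 18 months and all 8 Schwann cell markers lower. Keratinocyte markers summed to at most 1.12 CPM at 28 months, against 0.891 CPM at 18 months, and the defining marker Krt5 was at 0 in all 4 libraries. Counts in the 18-month library lay closer to the 3′ end of genes: the mean position from the 5′ end (0) to the 3′ end (1) had a median of 0.510, 0.499 and 0.507 at 28 months, against 0.564 at 18 months over 6258 genes, and 89.5% of these genes were more 3′ at 18 months than in every 28-month library. In bulk tissue fewer cells of a type and less RNA per cell cannot be told apart. The labels do not tie the libraries to separate animals, so p-values measure only the spread between these libraries, and the 18-month group, being 1 library, was taken to vary as the 28-month group does. Confidence intervals and limits cover counting error only.

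Total expression of the family was not separated between the ages. The edgeR quasi-likelihood test with Benjamini-Hochberg adjustment called 0 of the 7 genes, beside 0% of the 15376 genes tested. At an unadjusted p under 0.05 it also gave 0 of the 7, beside 4.90% of all genes, and the DESeq2 Wald test and limma voom called 0 of the 7. The log2 difference of 28 over 18 months was positive for 4 members and negative for 3, with a median of 0.218 beside 0.056 over all genes.

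Ldb3 (ENSMUSG00000021798, GRCm38 chromosome 14, 34526603 to 34588682) encodes Cypher or ZASP, a core Z-disc protein. Its counts per bin summed to 116945, 80861 and 100184 in the 28-month libraries, against 79110 at 18 months, which gave 1751, 829 and 1659 CPM at 28 months, against 1215 CPM at 18 months. Replicates 1 and 3 lay above the 18-month library and replicate 2 below it. The log2 difference was 0.22 ± 0.56 (SE; edgeR adjusted p = 0.951).

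Pdlim3 (ENSMUSG00000031636, chromosome 8, 45885461 to 45919548) encodes ALP, the actinin-associated LIM protein. It had 643, 231 and 601 CPM at 28 months, against 306 CPM at 18 months. Replicate 2 was again the lowest and the groups overlapped. The log2 difference was 0.68 ± 0.66 (SE; edgeR adjusted p = 0.89).

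Pdlim7 (ENSMUSG00000021493, chromosome 13, 55495795 to 55513676) encodes Enigma, which binds receptor kinases and tropomyosin. It was counted in one unit with Mir6945, a microRNA hairpin inside it, and reads of the pair cannot be told apart. The bin that covers the hairpin, bin 19, had 13, 10 and 8 counts at 28 months, against 8 at 18 months. The unit had 115, 61.3 and 107 CPM at 28 months, against 67.5 CPM at 18 months, the same order of libraries as for Ldb3 and Pdlim3. The log2 difference was 0.48 ± 0.44 (SE; edgeR adjusted p = 0.887).

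Leaving out 28-month replicate 2 changed these calls. Pdlim3 then had a log2 difference of 1.04 ± 0.14 (SE; edgeR adjusted p = 0.0178) and Pdlim7 one of 0.74 ± 0.14 (0.0294), and both were called. Ldb3, at 0.51 ± 0.13, missed the threshold (0.0601). In that comparison 11.9% of all genes were called, and its residual spread came from replicates 1 and 3 alone. Fast fibre markers moved with these 3 genes across the libraries, as the sums above show, and their part in the result was not tested.

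Pdlim5 (ENSMUSG00000028273, chromosome 3, 142239590 to 142395696) encodes ENH, which binds protein kinase C through its LIM domains. It had 382, 305 and 471 CPM at 28 months, against 442 CPM at 18 months, and the groups overlapped. The log2 difference was -0.20 ± 0.38 (SE; edgeR adjusted p = 0.938).

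The remaining members are more widely expressed and were scarce here. Pdlim1 (ENSMUSG00000055044, chromosome 19, 40221173 to 40271842) encodes CLP36, which joins alpha-actinin on stress fibres. It had 12.5, 13.1 and 14.1 CPM at 28 months, against 20.2 CPM at 18 months, so that every 28-month library lay below the 18-month one. Its log2 difference of -0.61 ± 0.25 (SE) had an unadjusted p of 0.0564 and an edgeR adjusted p of 0.859, the lowest of the 7. Its summed counts were 835, 1282 and 850 at 28 months, against 1316 at 18 months. Coding bin 9 had 100, 171 and 99 counts at 28 months, against 109 at 18 months. Coding bin 12 had 80, 135 and 80 at 28 months, against 87 at 18 months. The mean position of Pdlim1 counts was 0.587, 0.565 and 0.58 at 28 months, against 0.635 at 18 months. The part of this 3′ shift in the log2 difference was not tested. The part that macrophage and Schwann cell content, described above, plays in the levels of these widely expressed members was not tested either.

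Pdlim2 (ENSMUSG00000022090, chromosome 14, 70164218 to 70177681), whose product is known to promote the breakdown of NF-kappaB and STAT proteins, had 8.76, 5.97 and 10.3 CPM at 28 months, against 10.7 CPM at 18 months. Replicate 3 came close to the 18-month value and the groups did not overlap. Most counts lay near the 3′ end, at a mean position of 0.876, 0.858 and 0.849 at 28 months, against 0.903 at 18 months. Coding bin 25, near the 5′ end, had 4, 7 and 8 counts at 28 months, against 1 at 18 months. Its mean count was below the 10 needed for the main test. The gene sum thus measured mainly the 3′ part, and the part of the 3′ shift in it was not tested. The log2 difference was -0.36 ± 0.39 (SE; edgeR adjusted p = 0.897).

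Pdlim4 (ENSMUSG00000020388, chromosome 11, 54054928 to 54069014) encodes RIL, an actin-binding relative. It had 3.29, 3.40 and 3.15 CPM at 28 months, against 2.38 CPM at 18 months, from 190 to 332 counts at 28 months, against 155 at 18 months. All 28-month libraries were higher, and the log2 difference was 0.46 ± 0.38 (SE; edgeR adjusted p = 0.872). Lying wholly above or below the 18-month library was common: 25.4% of all tested genes had every 28-month CPM above it, as Pdlim4 did, and 26.4% had every one below it, as Pdlim1 and Pdlim2 did.

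**Figure D1:**
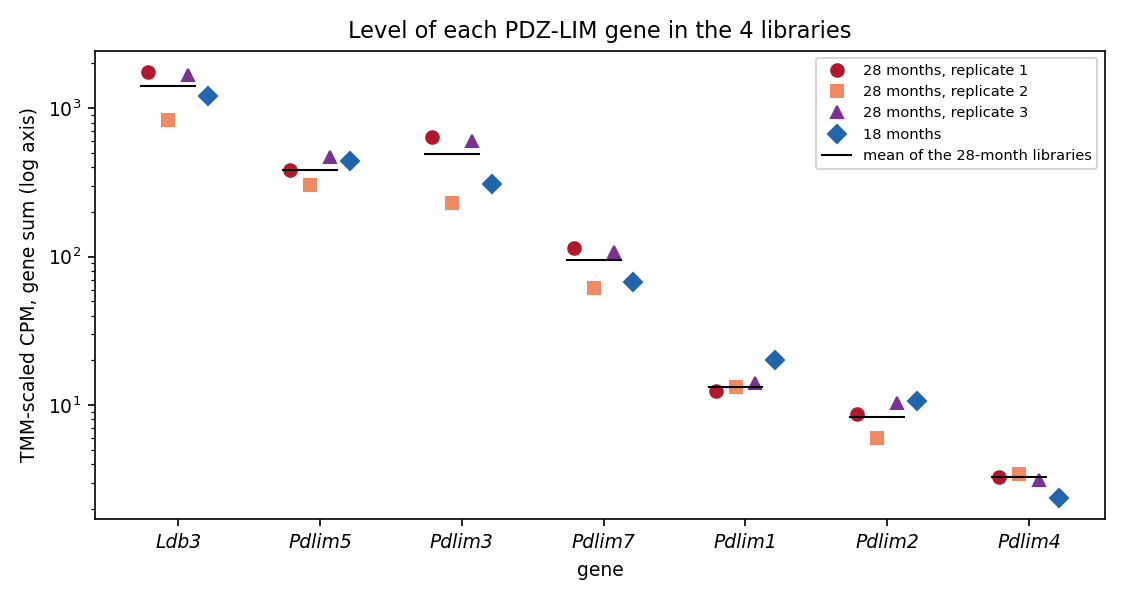
TMM-scaled CPM of each PDZ-LIM gene on a log axis, with 1 marker per library and a line at the mean of the 28-month libraries. Ldb3, Pdlim3 and Pdlim7 have 28-month replicates 1 and 3 above and replicate 2 below the 18-month marker, and Pdlim1 lies at 12.5 to 14.1 CPM at 28 months against 20.2 CPM at 18 months.

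To order the members by level, CPM were divided by the summed length of all bins of a gene. Pdlim3 was highest in the 28-month libraries at 307 ± 141 CPM per kilobase (SD, n = 3), followed by Ldb3 at 233 ± 83.6. At 18 months this pair stood the other way round, with 191 CPM per kilobase for Pdlim3 and 199.9 for Ldb3. The 28-month means of Pdlim3 and Ldb3 did not differ beyond the spread between libraries. Library by library Pdlim3 was above Ldb3 at 28 months, at 401, 144 and 375 against 288, 136 and 273 CPM per kilobase. Pdlim5 came next, at 59.9 ± 12.9 CPM per kilobase at 28 months, against 68.6 at 18 months, and then Pdlim7, at 19.4 ± 5.94 at 28 months and 13.9 at 18 months. Pdlim1, Pdlim2 and Pdlim4 followed at 2.52 ± 0.151, 1.86 ± 0.491 and 1.28 ± 0.0507 CPM per kilobase at 28 months and 3.84, 2.38 and 0.930 at 18 months. Pdlim2 and Pdlim4 were level in 28-month replicate 2, at 1.33 CPM per kilobase each, while every other pair of neighbours below Ldb3 kept apart in all 28-month libraries. With the length of the longest transcript, which for Pdlim3 retains an intron, Ldb3 was first in every library, and Pdlim3 came after Pdlim5 at 18 months.

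Across the 4 libraries, the genes nearest to each member in the pattern of log2 CPM were named by the mean absolute difference after each gene's own mean was removed. Among 7640 genes the nearest to Ldb3 were the joined unit of Nrd1 and Mir761 (0.0144), Pdk2 (0.0197) and Sept11 (0.0258). Those nearest to Pdlim3 included Rpl8 (0.0155) and Dohh (0.0305), and those nearest to Pdlim7 were Stoml2 (0.00898), Sdhb (0.0131) and Sharpin (0.0143). Pdlim5 was nearest to Agtrap (0.0300), H2-T22 (0.0315) and Prune1 (0.0317), and Pdlim1 to Usp13 (0.0110), Nup210 (0.0129) and Hnrnph2 (0.0230). With 4 libraries many genes share any given pattern. Among the members themselves, Ldb3 and Pdlim7 were the closest pair, at 0.110, and Pdlim1 and Pdlim3 the farthest, at 0.756.

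In Pdlim5 a pair of short exons was counted in every 28-month library and had 0 counts in the single 18-month library. Bin use was tested with edgeR diffSpliceDGE, which asks whether a bin's change differs from that of its gene. The test covered 74 bins of 6 members, all but Pdlim7, because joined units were left out. It called 3 of the 74 (4.05%), beside 0.364% of all bins tested: Pdlim5 bins 12 and 14 and Ldb3 bin 11. By gene, the Simes test called Pdlim5 (adjusted p = 1.9e-10), 1 of the 6 members tested, beside 3.43% of all genes.

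Pdlim5 bin 12, the 18-base exon printed above, had 377, 534 and 442 counts in the 28-month libraries, against 0 at 18 months. The bin lies in 3 of the 5 annotated coding transcripts used to place it. Its share of the gene's counts was 1.61 ± 0.167% at 28 months (SD, n = 3), and the 0 counts at 18 months allow a share of up to 0.0104%. Its share was thus at least 155-fold higher at 28 months, taking 3 counts as the floor of the 18-month library (edgeR adjusted p = 9.99e-11).

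Pdlim5 bin 14, the 17-base exon, had 348, 462 and 421 counts at 28 months, against 0 at 18 months. It is annotated in 1 of the 5 coding transcripts. Its share was 1.47 ± 0.0963% at 28 months (SD, n = 3), at least 141-fold above the same floor of 3 counts at 18 months (edgeR adjusted p = 1.16e-10). The 28-month libraries lay close together in both bins and the groups did not overlap.

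The exon between them was hardly used at either age. Bin 13, of 15 bases, had 7, 6 and 1 counts at 28 months, against 2 at 18 months, too few to be tested. Relative to the mean count of the nearest constitutive bins, 10 and 19, bin 12 reached 22.9, 26.2 and 22.5% and bin 14 reached 21.1, 22.6 and 21.4% at 28 months, and both were at 0% at 18 months. Those constitutive bins were well covered at 18 months, with 2633 counts in bin 10 and 557 in bin 19.

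Bin 17, a coding exon of 92 bases just upstream, is annotated in 4 of 5 coding transcripts but not in the one that holds bin 14. It had 48, 67 and 28 counts at 28 months, against 110 at 18 months, or 2.91, 3.28 and 1.42% of the constitutive bins at 28 months, against 6.90% at 18 months. The 18-month library was the highest. The log2 difference of -1.23 was not called by edgeR (adjusted p = 0.721) and was called by limma voom with diffSplice. That test called 3269 of 143485 bins, 2371 with a negative log2 difference and 898 with a positive one. The lengths of bins 14 and 17 leave the same remainder of 2 bases after whole codons.

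Bin 11 is a stretch of 2 bases that an alternative splice site adds to the constitutive bin 10. It had 66, 67 and 116 counts at 28 months, against 241 at 18 months, or 4.0, 3.28 and 5.90% of the constitutive bins at 28 months, against 15.1% at 18 months. The log2 difference of -1.44 missed the threshold (edgeR adjusted p = 0.268). It was called by limma voom with diffSplice, as were 2371 bins in all with a negative log2 difference.

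Across the genome, exons of such length were counted unevenly in several libraries, the 28-month ones included. Of 25 placed exons of up to 20 bases with at least 100 counts in some library, 6, 0 and 5 in 28-month replicates 1, 2 and 3 and 6 at 18 months held at most 1% of the CPM of their highest library. The 6 at 18 months included Pdlim5 bins 12 and 14 and Ldb3 bin 11, which reached 100 counts only in 28-month libraries. The tally is therefore no separate evidence for these 3 exons. Of the 6, 4 were this low in no 28-month library. Those 4 were these 3 exons of the family and 1 other. Ldb3 bin 11 stayed above the limit in 28-month replicate 3 with only 6 counts, against 1 at 18 months. Of 1057 exons of 21 to 50 bases, 3, 0 and 1 were this low at 28 months, against 2 at 18 months. Of 29524 longer exons, 4, 14 and 1 were at 28 months, against 13 at 18 months. The reads were aligned with TopHat2, per the submitters' processing notes, and the part that alignment across very short exons plays in the Pdlim5 result was not tested.

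Ldb3 bin 11, of 15 bases, is annotated in 1 of 5 coding transcripts. It had 349, 111 and 6 counts in replicates 1, 2 and 3 of 28 months, against 1 at 18 months. Replicates 1 and 2 were high, and replicate 3 was close to the 18-month library. Its share was 0.147 ± 0.146% at 28 months (SD, n = 3) and 0.00126% at 18 months (95% exact interval 3.2e-05 to 0.00704%), a ratio of 116 with a counting interval of 20.9 to 4600. The edgeR test called it (adjusted p = 0.038), but it was not called without 28-month replicate 1 (0.673) or replicate 3 (0.0585), nor by limma voom (0.905). The adjusted p ran from 0.0178 to 0.905 over the settings tried. By gene, the Simes test did not call Ldb3 (adjusted p = 0.0628), whereas the gene F test did (0.0496), as it did Pdlim1 (0.0428) and Pdlim5, in a test that called 30.5% of all genes.

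Pdlim7 bin 21, of 17 bases, is annotated in 2 of 4 coding transcripts that span it. It had 92, 49 and 0 counts in replicates 1, 2 and 3 of 28 months, against 52 at 18 months. Here a 28-month library was the one at 0, and the 18-month count lay within the range of the others. Relative to bin 29, a constitutive bin upstream, this was 13.8, 10.9 and 0% at 28 months, against 16% at 18 months, where it was highest. With joined units kept, edgeR called 0.387% of all bins and 0 bins of Pdlim7, of which bin 14 had the smallest p, with an adjusted p of 0.866.

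**Figure D2:**
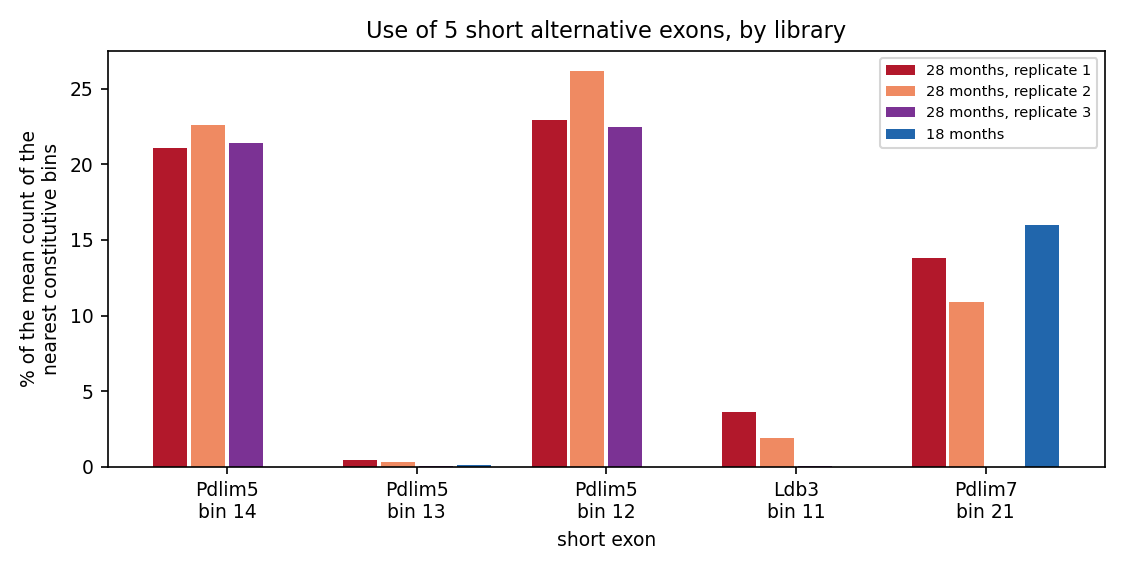
Count of 5 short alternative exons as a percentage of the mean count of the nearest constitutive bins, with 1 bar per library and the 28-month libraries left of the 18-month one. Pdlim5 bins 12 and 14 stand at 21.1 to 26.2% at 28 months with no bar at 18 months, and Pdlim7 bin 21 lacks a bar in 28-month replicate 3 instead.

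The skeletal muscle forms of Ldb3 dominated at both ages. Bins 12 and 13, the exons that replace the exon of the cardiac forms, together had 17411, 11100 and 14919 counts at 28 months, against 7664 at 18 months. The cardiac exon, bin 14 (359 bases), had 40, 51 and 49 counts at 28 months, against 29 at 18 months. The ratio of skeletal to cardiac counts was 319 ± 110 at 28 months (SD, n = 3) and 264 at 18 months, a difference smaller than the spread. Bin 13, although only 23 bases long, reached 72.8, 75.3 and 73.1% of the nearest constitutive bins at 28 months, against 56.4% at 18 months. Neither bin 12 nor bin 13 was called (edgeR adjusted p = 1 for both). Bin 7, a 186-base exon of the long forms, was nearly unused, at 6, 11 and 11 counts at 28 months, against 5 at 18 months.

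In Pdlim3, 1 coding exon was nearly skipped at both ages. This exon, bin 4, of 188 bases, had 36, 72 and 59 counts at 28 months, against 29 at 18 months, while its neighbour bin 3 had 7922, 4628 and 6477 counts at 28 months, against 2896 at 18 months. A second annotated coding transcript carries other exons in place of bin 4, which the 7 bins placed here do not cover.

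Short and long forms were compared by the exon on which the short form ends and the exons found only in long forms. In Pdlim5 the short-form exon had 20.6, 11.3 and 24.1 times the counts of the long-form exons at 28 months, against 25.6 times at 18 months. In Pdlim7 this ratio was 3.31, 1.03 and 2.96 at 28 months, against 1.66 at 18 months. In Ldb3 it was 1.38, 0.691 and 1.05 at 28 months, against 0.881 at 18 months. Replicate 2 had the lowest ratio in all 3 genes, and the 18-month value lay within the 28-month range in Pdlim7 and Ldb3 and just above it in Pdlim5. These ratios do not allow for length, which in Ldb3 was 610 bases for the short-form exon and 4142 for the long-form exons. Per kilobase the short form of Pdlim5 stood furthest above the long form, at 159, 121 and 197 CPM per kilobase against 2.62, 3.66 and 2.78 for the long-form exons at 28 months, and at 240.1 against 3.19 at 18 months. For Ldb3 the values were 581, 248 and 510 against 62.1, 52.8 and 71.4 at 28 months, and 579 against 96.8 at 18 months. For Pdlim7 they were 69.3, 31.6 and 66.3 against 7.08, 10.4 and 7.58 at 28 months, and 44.75 against 9.12 at 18 months. The short-form exon was thus the higher in every library of all 3 genes.

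Counts of the 5′ exons relative to the short-form exon set the single 18-month library apart from the 28-month ones in these genes. The 5′ exons of Pdlim5 had 0.361, 0.347 and 0.330 counts for each count of the short-form exon at 28 months, against 0.114 at 18 months. For Ldb3 this was 1.47, 1.37 and 1.58 at 28 months, against 0.504 at 18 months. For Pdlim7 it was 1.54, 1.55 and 1.48 at 28 months, against 1.10 at 18 months. All 28-month libraries lay above the 18-month one in the 3 genes. The mean position of counts moved with this: it was 0.219, 0.283 and 0.232 at 28 months, against 0.357 at 18 months for Ldb3, and 0.207, 0.216 and 0.208 at 28 months, against 0.248 at 18 months for Pdlim5. For Pdlim7 it was 0.269, 0.331 and 0.275 at 28 months, against 0.330 at 18 months, and so within the 28-month range. The 3′ shift of the 18-month library over most genes was of the same direction, and its part in these differences was not tested.

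**Figure D3:**
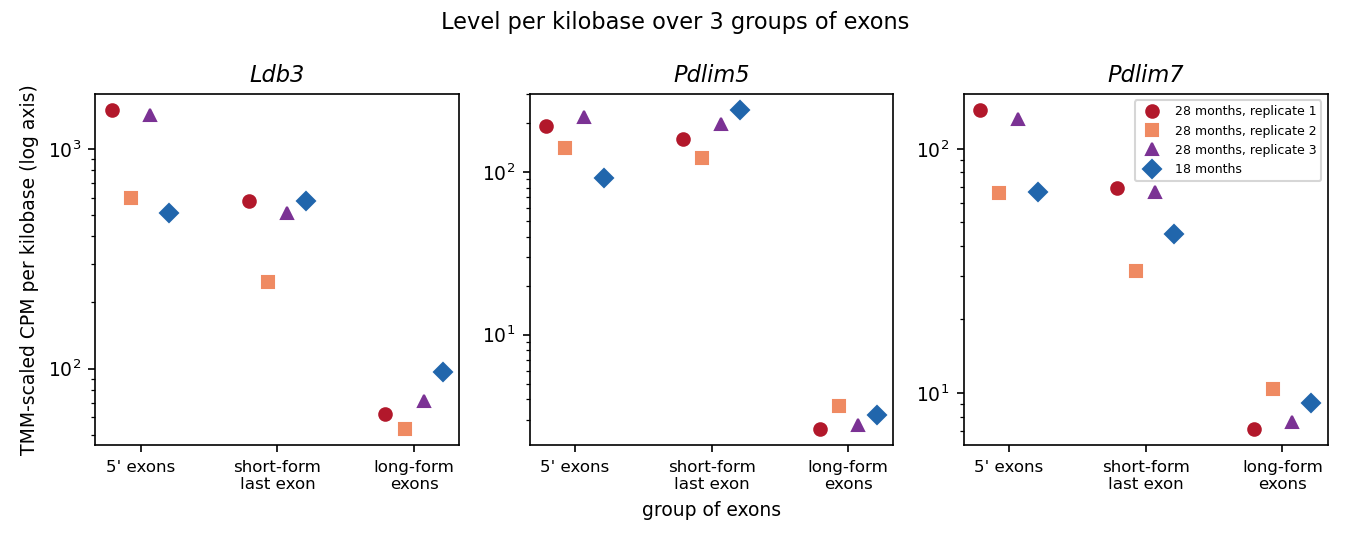
TMM-scaled CPM per kilobase on a log axis for the 5′ exons, the short-form last exon and the long-form exons of Ldb3, Pdlim5 and Pdlim7, with 1 marker per library. In Pdlim5 the 18-month library is lowest over the 5′ exons (91.8 CPM per kilobase) and highest over the short-form last exon (240.1 CPM per kilobase).

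At the very start of the genes the same direction was seen. Ldb3 bins 19 and 20, pieces of a first exon that could be placed only together, had 4170, 2088 and 3570 counts (bin 19) at 28 months, against 407 at 18 months. The log2 difference of bin 20 was 2.73 and was not called (edgeR adjusted p = 0.622). Ldb3 bin 18, a non-coding stretch of 105 bases directly 5′ of bin 17 in 1 of 5 transcripts, ran the other way, at 653, 296 and 482 counts at 28 months, against 874 at 18 months. Relative to bin 17 it reached 7.54, 6.36 and 6.37% at 28 months, against 39.8% at 18 months, and it was not called (edgeR adjusted p = 1). Pdlim5 bin 22, its most 5′ bin, had 804, 901 and 840 counts at 28 months, against 245 at 18 months, a log2 difference of 1.84 (edgeR adjusted p = 0.18). This bin was called by limma voom with diffSplice (adjusted p = 0.022). Without 28-month replicate 2, edgeR called 10 of 73 member bins tested (13.7%), beside 7.17% of all bins: Ldb3 bins 11, 19 and 20, Pdlim3 bin 6 and Pdlim5 bins 11, 12, 14, 17, 21 and 22.

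**Figure D4:**
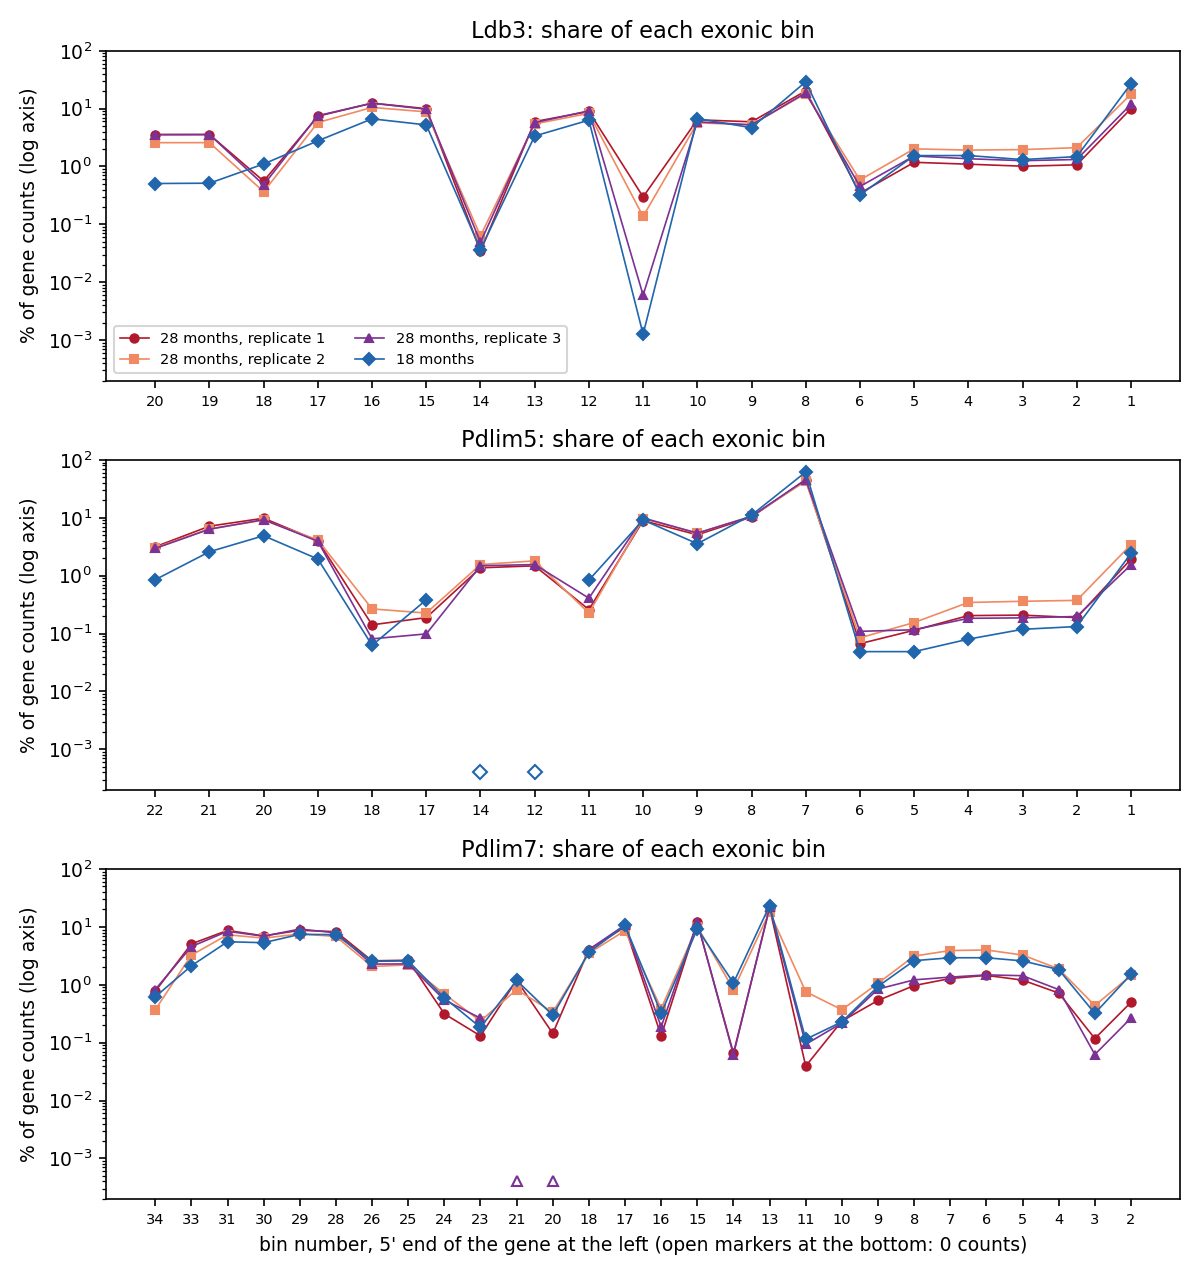
Share of each tested bin in the counts of its gene, in percent on a log axis, for Ldb3, Pdlim5 and Pdlim7, with the 5′ end at the left and 1 line per library. The 18-month line lies below the others over the 5′ bins of Ldb3, bin 18 excepted, and of Pdlim5, and open markers show the 0 counts of Pdlim5 bins 12 and 14 at 18 months and of Pdlim7 bins 20 and 21 in 28-month replicate 3.

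In the other members the bins with the smallest p were not called, each with an edgeR adjusted p of 1. Pdlim3 bin 6 took 9.07 ± 1.36% of the gene's counts at 28 months (SD, n = 3) and 4.92% at 18 months, and its last bin, bin 7, took 28.8 ± 0.481% at 28 months and 42.6% at 18 months. Pdlim1 bins 9 and 12 took 12.5 ± 0.938% and 9.98 ± 0.634% at 28 months and 8.41% and 6.71% at 18 months. Pdlim2 bin 6 took 9.61 ± 1.27% at 28 months, against 5.56% at 18 months, and bin 7 took 5.67 ± 1.49% at 28 months and 4.39% at 18 months. Pdlim4 bin 2 took 17.4 ± 4.24% at 28 months, against 28.7% at 18 months, and bin 4 took 10.7 ± 0.278% at 28 months and 6.29% at 18 months. The last bin of Pdlim3 and bin 2 of Pdlim4, near its 3′ end, had the larger shares at 18 months. Pdlim7 bins 14 and 2, tested with joined units kept and not called either, took 0.318 ± 0.439% and 0.737 ± 0.627% at 28 months and 1.08% and 1.51% at 18 months.

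Pdlim5, Pdlim7 and Ldb3 share a constitutive coding exon of 37 bases just upstream of the short-form end. It is shown because it was counted freely at both ages and can be compared base by base, and it is given whole, in capitals, from the same release and strand (chr3:142303943-142303979, chr13:55507330-55507366 and chr14:34566857-34566893).
Pdlim5 bin 9: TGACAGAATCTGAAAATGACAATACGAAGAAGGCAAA
Pdlim7 bin 15: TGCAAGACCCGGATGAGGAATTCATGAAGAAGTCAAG
Ldb3 bin 9: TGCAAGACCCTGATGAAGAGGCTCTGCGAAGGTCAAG
Pdlim7 and Ldb3 had 26 of the 37 bases in common (70.3%), Pdlim5 and Pdlim7 had 22 (59.5%) and Pdlim5 and Ldb3 had 19 (51.4%). The exon had 912, 603 and 775 counts in Pdlim7 at 28 months, against 404 at 18 months. It had 1295, 1607 and 1546 counts in Pdlim5 at 28 months, against 1026 at 18 months, and 6920, 4232 and 5252 counts in Ldb3 at 28 months, against 3701 at 18 months.

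Partners of the family were described from 3 lists, in which edgeR called 0 genes. Of 43 Z-disc partners, 23 had a positive and 20 a negative log2 difference, with a median of 0.014 beside 0.056 over all genes, and 3 of the 43 were under an unadjusted p of 0.05, beside 4.90% of all genes. Every 28-month library lay above the 18-month one in 3 of the 43 and below it in 13, beside 25.4% and 26.4% of all genes. Xirp2, which binds actin and alpha-actinin at the Z-disc, had 982, 620 and 921 CPM at 28 months, against 1883 CPM at 18 months, for which the log2 difference was -1.16 ± 0.41 (SE; edgeR adjusted p = 0.859). Bag3, a co-chaperone that clears damaged Z-disc proteins, had -0.68 ± 0.25. Actn3, the alpha-actinin of fast fibres, had 24470, 4553 and 25890 CPM at 28 months, against 8813 CPM at 18 months, with replicate 2 lowest as for Ldb3 and Pdlim3. Neb, the giant thin-filament protein nebulin, had 0.13 ± 0.62.

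Of 28 other LIM proteins, 15 were positive and 13 negative, with a median of 0.023 beside 0.056 over all genes, and 1 of the 28 was under an unadjusted p of 0.05, beside 4.90% of all genes. Every 28-month library lay above the 18-month one in 8 of the 28 and below it in 4, beside 25.4% and 26.4% of all genes. The gene with the smallest p was Ldb1, a nuclear adaptor of LIM factors, at 24.0, 26.6 and 20.4 CPM at 28 months, against 13.3 CPM at 18 months, for which the log2 difference was 0.84 ± 0.29 (SE; edgeR adjusted p = 0.859). Fhl1, an abundant LIM protein of muscle, had -0.76 ± 0.33, and Lmo7 had 0.06 ± 0.41.

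Of 10 regulators of muscle splicing, 1 was positive and 9 negative, with a median of -0.380 beside 0.056 over all genes, and 1 of the 10 was under an unadjusted p of 0.05, beside 4.90% of all genes. Mbnl2, which acts on alternative exons of muscle genes, had 135, 123 and 127 CPM at 28 months, against 216 CPM at 18 months, for which the log2 difference was -0.75 ± 0.27 (SE; edgeR adjusted p = 0.859). Its relative Mbnl1, known in mouse and human to act on Ldb3 exons, had 244, 235 and 274 CPM at 28 months, against 384 CPM at 18 months, at -0.61 ± 0.30. Qk, another splicing factor of muscle, had -0.62 ± 0.27. Every 28-month library lay above the 18-month one in 1 of the 10 regulators and below it in 7, beside 25.4% and 26.4% of all genes. Their part in the exon use of Pdlim5 was not tested.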

How the data were processed

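The deposited files, 1 per library, hold raw counts per exonic bin, made by the authors with no normalization. Per the submitters' processing notes, bcl2fastq 1.8.3 and TopHat2 2.0.4 were used with GRCm38; the counter, annotation release and strand setting are not given in the sources used here. Bin names have the form of the DEXSeq script, under which a fragment over several bins counts in each. The 5 entries that name no gene (3.36 to 4.56% at 28 months, 5.20% at 18 months) were left out.

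Bins were summed per gene. Units averaging 10 counts or more were fitted with edgeR 4.0.16 (quasi-likelihood, TMM; common biological coefficient of variation 0.378, 2 residual and 3.17 prior degrees of freedom). Bins with a mean of at least 10 were tested with diffSpliceDGE, joined units left out, with Simes p-values per gene. The threshold was 0.05 on p-values adjusted by Benjamini-Hochberg over all genes or bins. SEs are the log2 difference over the root of F. DESeq2 1.42.0 and limma 3.58.1 served as alternatives, with R 4.3.3, Python 3.11.15 and scipy 1.17.1. The fits were also run on simulated counts with known changes. These had less spread than the data, no outlying library and no 3′ shift, so they do not test those features. Libraries differed beyond sampling noise (chi-square over degrees of freedom 60.6 to 460).

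Gene names matched 97.3% of identifiers. Bins were placed on GENCODE M21 by its older transcripts, by which 87.6% of 26257 units with several bins had an equal number, which does not prove the placement. Pdlim5 and Ldb3 had fewer bins than the annotation and were placed by merging pieces that differ only at transcript ends, keeping merges in which constitutive exons carry counts. Similarity used log2(CPM + 0.5) and genes with a mean of at least 10 CPM. Named bins were those called, the 2 of smallest p per member and annotated alternative exons. Ldb3 bin 18, Pdlim2 bin 25, the most 5′ bins and the 37-base exons were chosen after their values were seen. Named list genes were the 2 of smallest p and the 2 most abundant per list. Keeping joined units, so that Pdlim7 was tested, and setting bins against the nearest constitutive bins were chosen after seeing the data. One gene near Pdlim3 in pattern is not reported here. Members and lists were chosen with earlier results of these data known.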

Additional observations from a re-analysis of the deposited data

How the results depend on the processing

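Gene calls were 0 with all settings but the DESeq2 Wald test (31) and fits that left out a 28-month library (0 to 1799, the highest without replicate 2); for the members these leave-out fits gave 0 to 2 calls. Called bins numbered 523, against 209 with a mean count of at least 50 and 3269 by limma voom with diffSplice, and 229 to 9680 with a library left out (334 without replicate 1, 9680 without replicate 2, 229 without replicate 3). Genes called for exon usage numbered 377, against 172 and 1655 in those settings, 3353 by the gene F test, and 167 to 3230 with a library left out (232, 3230 and 167 in the same order). Of the members' bins 3 of 74 (4.05%) were called, beside 0.364% of all bins. By limma voom 5 of 74 (6.76%) were called, beside 3269 of 143485 bins. Without replicates 1, 2 and 3 in turn, 2 of 75, 10 of 73 and 2 of 74 member bins were called. Over all bins these fits called 334 of 145121, 9680 of 135020 and 229 of 145120. For exon usage 1 of the 6 members tested was called, beside 3.43% of all genes. With a mean count of at least 5, 2 of 6 were called (Pdlim5 and Ldb3), beside 446 of 11936 genes. The F test called 3 of 6, beside 30.5% of all genes. Without replicate 2, 3 of 6 were called, beside 3230 of 10658 genes. Without replicate 1 or 3 it was 1 of 6, beside 232 of 11090 and 167 of 11045 genes. Over 166 alternatives for 19 log2 differences, 157 kept direction and side of the threshold, 4 gained a call, 5 lost one (all Ldb3 bin 11) and 0 reversed. Pdlim5 bins 12 and 14 were called in every setting run, with adjusted p up to 0.00141. The causes were not tested. No paired analysis was possible because the lone 18-month library carries no replicate number. The 18-month library could not be left out, and a mean count under 10 limits bins such as Pdlim5 bin 13.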
